A study of Mus musculus with 12 samples.

Results

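The T cell receptor complex and its coreceptors were followed through 10 genes in mouse lung tumours, taken as every probe set named for them in the deposited array table. They are Cd3d, Cd3e, Cd3g and Cd247, which encode the signalling chains of the receptor, and Cd8a, Cd8b1 and Cd4, which encode the coreceptors. Lck encodes the kinase that the coreceptors carry, Il7r the receptor chain for interleukin 7, and Foxp3 the transcription factor of regulatory T cells. These are 10 of the 18193 genes named in the table. Probe sets were found for 9 of them, 18 in all, and none was named for Lck in the annotation used here. All 9 genes passed a filter on dim signals, with 14 of the 18 probe sets.

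The T cell receptor recognises peptides held by MHC molecules but cannot signal by itself. The CD3 chains and the zeta chain from Cd247 carry the motifs that Lck phosphorylates, while CD8 and CD4 bind MHC class I and class II and mark the cytotoxic and helper lineages. In tumours, infiltrating T cells are a main source of these transcripts, but NK cells also express Cd247, some dendritic cells Cd8a, and some myeloid and innate lymphoid cells Cd4 or Il7r. PD-1, an inhibitory receptor of activated T cells, dampens the signal of the receptor.

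The tumours grew under the skin of female 129sv/ev mice from 344SQ, a mouse lung adenocarcinoma line. They came either from the parental cells, which the labels call Sen, or from 344SQ cells resistant to the anti-PD-1 antibody, called Res. The labels do not say how the Res cells were made or whether they are 1 clone. Anti-PD-1 or control IgG was injected on days 4 and 7 of tumour growth (10 mg/kg each time), and tumours were taken on day 11. The 4 groups, Sen+IgG, Sen+PD1, Res+IgG and Res+PD1, held 3 arrays each. Each group had 5 mice, and the labels do not link mice to arrays, so a p-value here measures the spread of arrays, which may be technical. The comparisons ask how T cell transcripts differ between the lines under each antibody and how anti-PD-1 moves them within each line.

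Values are log2 levels on arrays for whole-tumour RNA, so fewer T cells and less RNA per T cell cannot be told apart, and the cells a transcript came from are not known. Differences are log2 differences of group means, tested with limma over 15493 genes, and a gene is said to have passed where its Benjamini-Hochberg adjusted p was under 0.05. A probe set's brightness depends on its probes, so levels are compared between arrays and not between genes. Values under 3.32, the 25th percentile of the table, are close to the floor of the arrays.

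The parental IgG replicate 1 and parental anti-PD-1 replicate 3 arrays stood apart in the table as a whole, and results that turn on them are given without them too. The mean of 10 epithelial genes separated the lines, from 8.45 to 9.47 on the parental and from 8.14 to 8.33 on the resistant arrays. Of these 10 genes, 3 were lower in resistant tumours under each antibody, where 7.31% of all genes were lower under IgG and 11.9% under anti-PD-1. Krt19 was the 1 higher gene, under anti-PD-1, where 21.6% of all genes were higher. Of 5 tested lung genes 1 was lower under each antibody, beside the same shares of all genes. It was the surfactant gene Sftpb, whose mean was 7.76 in Sen+IgG and 7.58 in Sen+PD1 against 6.09 in Res+IgG and 6.01 in Res+PD1. Nkx2-1, the lineage factor of lung epithelium, lay between 3.78 and 4.16 on all arrays, and Sftpc, another surfactant gene, between 4.25 and 5.08 without passing. The part of these epithelial differences in the T cell values below was not tested. The excess of the 3' over the 5' Gapdh control probe sets was 0.21 ± 0.08 (SD, n = 3) in Sen+IgG and 0.32 ± 0.09 in Sen+PD1, against 0.037 ± 0.061 in Res+IgG and 0.033 ± 0.055 in Res+PD1. This measure of RNA ends therefore moved with the line, and its part in the line differences below was not tested. The mean of 12 skeletal muscle genes ran from 6.79 to 10.76 in Sen+IgG, 9.69 to 11.50 in Sen+PD1, 9.35 to 10.10 in Res+IgG and 6.56 to 9.26 in Res+PD1. Its part in the differences below was not tested either.

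Among the receptor's signalling chains, Cd3d and Cd3g varied most between tumours, and both genes lie head to head in 1 locus. Their start sites are 1355 bases apart on chromosome 9 and point away from each other, and the start of Cd3e lies 27825 bases from that of Cd3d. The 250 bases before each start are shown because Cd3d and Cd3g moved together across the arrays while Cd3e, from the same locus, moved far less. The RefSeq windows (build GRCm38.p6, read in the direction of transcription) are chr9:44981536-44981785 on the plus strand, chr9:44980432-44980681 on the minus strand and chr9:45009612-45009861 on the minus strand. Capitals mark an E box, searched as CAGGTG, which reads CACCTG where it lies on the other strand. They also mark an ETS motif, searched as AGGAAG, which there reads CTTCCT.
Cd3d: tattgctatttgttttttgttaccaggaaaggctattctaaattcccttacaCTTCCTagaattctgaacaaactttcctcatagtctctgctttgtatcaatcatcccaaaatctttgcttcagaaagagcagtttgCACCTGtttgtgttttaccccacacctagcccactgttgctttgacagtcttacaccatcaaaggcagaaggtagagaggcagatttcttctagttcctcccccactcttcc
Cd3g: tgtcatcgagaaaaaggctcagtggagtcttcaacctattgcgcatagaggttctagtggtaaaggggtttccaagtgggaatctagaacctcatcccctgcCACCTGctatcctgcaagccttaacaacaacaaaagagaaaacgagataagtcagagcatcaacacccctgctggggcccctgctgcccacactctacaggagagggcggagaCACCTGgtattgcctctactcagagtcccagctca
Cd3e: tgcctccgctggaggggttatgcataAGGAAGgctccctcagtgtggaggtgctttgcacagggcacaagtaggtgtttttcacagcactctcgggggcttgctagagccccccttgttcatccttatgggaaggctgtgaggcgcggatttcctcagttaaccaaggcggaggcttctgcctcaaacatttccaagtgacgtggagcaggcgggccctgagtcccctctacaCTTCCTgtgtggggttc
The Cd3d window held 1 E box, at position -112 from the start site, and 1 ETS motif. The Cd3g window held 2 E boxes and no ETS motif, and the Cd3e window held 2 ETS motifs and no E box. Of all 32851 windows of this length, 17.22% held the E box and 29.48% the ETS motif. Among the 10 windows found for the genes described here, with Lck and Foxp3 giving 2 each, 4 held the E box and 7 the ETS motif, and none was found for Cd8b1 or Cd4. Further motifs were searched on both strands. RUNX (TGTGGT) was in 1 of the 10 windows and in 14.05% of all, TCF and LEF (CTTTGA) in 1 and 13.83%, and AGATAA, the motif of the GATA factors, in 2 and 9.99%. These matches describe the letters only.

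Cd3d, the delta chain, was at 5.00, 6.40 and 6.49 in Sen+IgG and at 5.69, 7.07 and 6.34 in Sen+PD1. In the resistant tumours it was at 5.18, 4.73 and 5.06 under IgG and at 5.15, 4.86 and 5.59 under anti-PD-1. Under anti-PD-1 every resistant array lay below every parental one, while under IgG the parental replicate 1 array lay among the resistant ones. Cd3g, the gamma chain, had the same shape with a wider range. It was at 3.48, 5.27 and 5.54 in Sen+IgG, 4.10, 6.26 and 5.27 in Sen+PD1, 3.45, 3.68 and 3.83 in Res+IgG and 3.48, 3.19 and 3.95 in Res+PD1. The resistant arrays thus stayed close to the floor, from 3.19 to 3.95, while the parental arrays ran from 3.48 to 6.26.

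Cd3e, the epsilon chain that pairs with both, covered a narrow range. Its levels were 5.38, 5.64 and 5.70 in Sen+IgG, 5.56, 5.68 and 5.85 in Sen+PD1, 5.53, 5.61 and 5.48 in Res+IgG and 5.50, 5.30 and 5.43 in Res+PD1. The groups overlapped under IgG and separated by a small margin under anti-PD-1. Cd247, the zeta chain, had 1 probe set above the floor, at 3.93, 4.02 and 4.17 in Sen+IgG and 4.26, 4.43 and 4.56 in Sen+PD1. In Res+IgG it was at 3.87, 3.77 and 4.04 and in Res+PD1 at 3.72, 4.16 and 4.26, so the highest resistant array only reached the lowest parental one given anti-PD-1. The other 3 Cd247 probe sets exceeded 3.32 on none of the 12 arrays and were not tested.

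**Figure D1:**
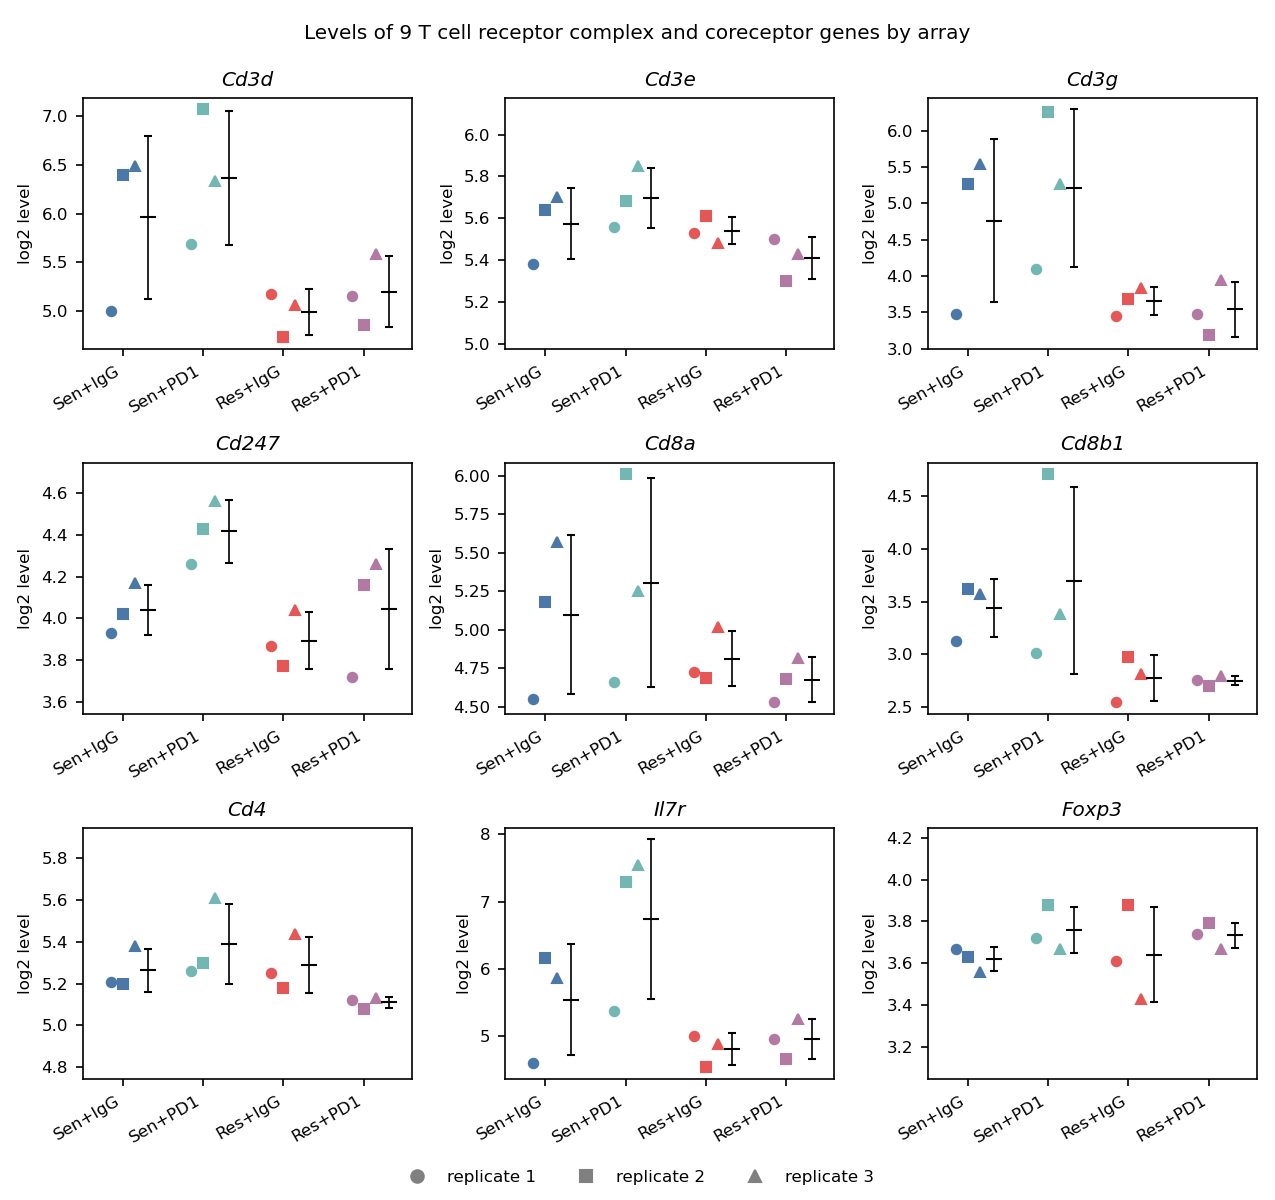
Log2 level of each gene (y axis, own scale in every panel) by group (x axis), from the probe set that stands for the gene, with 1 point per array, its shape giving the replicate number, and the mean ± SD beside it (n = 3). In the Cd3d, Cd3g and Il7r panels the Sen+PD1 arrays lie above all Res+PD1 arrays, and parental IgG replicate 1 lies near the resistant arrays.

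The coreceptor genes of the cytotoxic lineage followed Cd3d in shape but not in size. Cd8a, the alpha chain of CD8, was at 4.55, 5.18 and 5.57 in Sen+IgG, 4.66, 6.01 and 5.25 in Sen+PD1, 4.73, 4.69 and 5.02 in Res+IgG and 4.53, 4.68 and 4.82 in Res+PD1. Replicate 1 of each parental group sat inside the resistant range. Cd8b1, the beta chain, was at 3.12, 3.62 and 3.57 in Sen+IgG and at 3.01, 4.71 and 3.38 in Sen+PD1. All 6 resistant arrays, from 2.54 to 2.97, were under the 25th percentile, and the gene passed the filter only through 4 parental arrays. A lower level in resistant tumours was therefore partly fixed by that filter, and the counts between the lines are given without Cd8b1 as well.

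Further Cd8a probe sets were listed. A pair of dimmer ones ran parallel to the brightest, with differences of -0.56 and -0.63 between Res+PD1 and Sen+PD1 and no overlap there, and neither passed (adjusted p = 0.127 and 0.116). Of those whose names end in x_at, a mark of probes that can match other transcripts, 1 differed by -0.17 and the other stayed too dim for a test. Cd4, the helper coreceptor, was at 5.21, 5.20 and 5.38 in Sen+IgG, 5.26, 5.30 and 5.61 in Sen+PD1, 5.25, 5.18 and 5.44 in Res+IgG and 5.12, 5.08 and 5.13 in Res+PD1. Its 3 Res+PD1 arrays were the lowest of the 12. A dimmer Cd4 probe set pointed the other way under anti-PD-1, with a difference of 0.28 (adjusted p = 0.176 in limma's fit over 28634 probe sets).

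Il7r, which T cells need for survival signals from interleukin 7, ran from 4.54 to 7.55 over the 12 arrays, a range close to that of Cd3g. It was at 4.61, 6.17 and 5.86 in Sen+IgG and at 5.38, 7.29 and 7.55 in Sen+PD1. The resistant tumours held 5.01, 4.54 and 4.89 under IgG and 4.96, 4.66 and 5.26 under anti-PD-1. The second Il7r probe set read 5.30, 7.00 and 7.37 in Sen+PD1 against 3.85, 3.69 and 4.44 in Res+PD1, a wider gap in the same direction. The window before the Il7r start site (chr15:9529877-9530126, minus strand) is shown because Il7r had the largest difference of the 9 genes between Res+PD1 and Sen+PD1, and it held 1 ETS motif and no E box.
Il7r: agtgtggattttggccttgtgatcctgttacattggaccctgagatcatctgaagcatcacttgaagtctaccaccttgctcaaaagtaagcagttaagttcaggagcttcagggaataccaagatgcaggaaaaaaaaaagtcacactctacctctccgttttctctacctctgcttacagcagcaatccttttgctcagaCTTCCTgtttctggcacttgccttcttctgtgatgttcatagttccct
Foxp3 stayed close to the floor in every group, at 3.67, 3.63 and 3.56 in Sen+IgG, 3.72, 3.88 and 3.67 in Sen+PD1, 3.61, 3.88 and 3.43 in Res+IgG and 3.74, 3.79 and 3.67 in Res+PD1. All 4 groups overlapped.

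**Figure D2:**
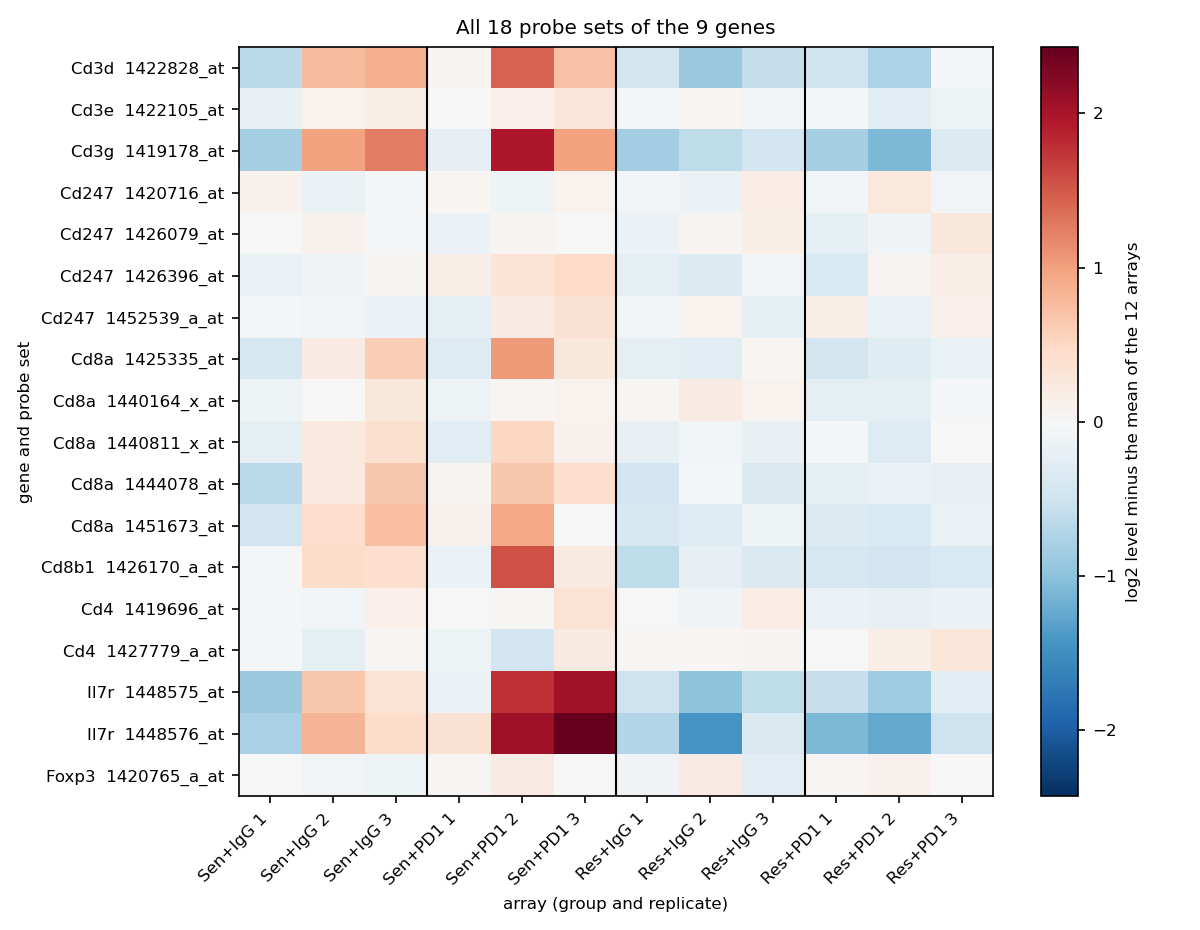
All 18 probe sets of the 9 genes (rows) on the 12 arrays (columns, grouped by black lines), coloured by the log2 level minus the probe set's mean over the arrays. Red cells gather in Cd3d, Cd3g, Cd8a, Cd8b1 and both Il7r rows of the parental arrays other than replicate 1, while the 3 dim Cd247 rows and Foxp3 stay pale.

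Under anti-PD-1, resistant tumours had less Cd3d, Cd3g and Il7r RNA than parental tumours. The mean of Il7r was 4.96 ± 0.30 in Res+PD1 and 6.74 ± 1.18 in Sen+PD1 (SD, n = 3), which is -1.78 or 3.43-fold (SE 0.52, limma adjusted p = 0.0235). Cd3g was at 3.54 ± 0.38 against 5.21 ± 1.08, a difference of -1.67 (SE 0.57, adjusted p = 0.0418). Of its 3 Res+PD1 arrays 2 exceeded 3.32, so no fold is given against this level near the floor. Cd3d was at 5.20 ± 0.37 against 6.37 ± 0.69, a difference of -1.17 (SE 0.41, adjusted p = 0.0488) or 2.24-fold. These 3 of the 9 genes passed, all lower, where 33.5% of all genes tested passed in either direction and 11.9% passed as lower. Leaving out Cd8b1, they were 3 of 8. An unadjusted p under 0.05 was reached by 7 of the 9 (6 of the 8 without Cd8b1), and by 44.1% of all genes.

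The other 6 genes were also at lower means in the resistant tumours, without passing, where 40.5% of all genes had a lower mean. Cd8b1 differed by -0.95 (SE 0.34, adjusted p = 0.0511) and passed in the fit over probe sets (adjusted p = 0.0461). Cd8a differed by -0.63, with a 95% interval from -1.32 to 0.058 (adjusted p = 0.144). Cd247, Cd3e and Cd4 differed by -0.37, -0.29 and -0.28 (adjusted p = 0.0669, 0.0590 and 0.0651). Foxp3 differed by -0.023, with an interval from -0.26 to 0.22, at a level close to the floor, where a fall may not show. The 9 differences had a median of -0.63 (-0.50 without Cd8b1), beside a median of 0.073 over all genes. There were 6 genes (Cd3d, Cd3e, Cd3g, Cd8b1, Cd4 and Il7r) with no overlap between the lines, all lower, or 5 of 8 without Cd8b1, against 15.8% of all genes without overlap and lower. Of the 14 probe sets tested, 5 passed (4 of 13 without Cd8b1), where 34.5% of all probe sets did, and the second Il7r probe set differed by -2.56 (SE 0.53, adjusted p = 0.00386).

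The 3 calls lay close to the threshold and depended on single arrays. Leaving out 1 array in turn gave between 0 and 7 genes that passed, with 0 without Sen+PD1 replicate 2 or 3 or Res+PD1 replicate 1 or 2, and 7 without Sen+PD1 replicate 1. Cd3d lost its call in 9 of these 12 fits, all but those without Sen+IgG replicate 1 or 3 or Sen+PD1 replicate 1. Cd3g lost it in 8, without Sen+PD1 replicate 2 or 3 or any resistant array, and Il7r in 4, those without Sen+PD1 replicate 2 or 3 or Res+PD1 replicate 1 or 2. Cd3d also lost its call with quantile normalisation (adjusted p = 0.0612), where Cd8b1 passed instead (0.0445), and with no filter on dim genes (0.0523). In a fit on the 6 arrays alone none passed (adjusted p = 0.0545, 0.0564 and 0.0562 for Cd3d, Cd3g and Il7r). Without both arrays that stood apart all 3 passed, with differences of -1.18, -1.64 and -1.38.

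**Figure D3:**
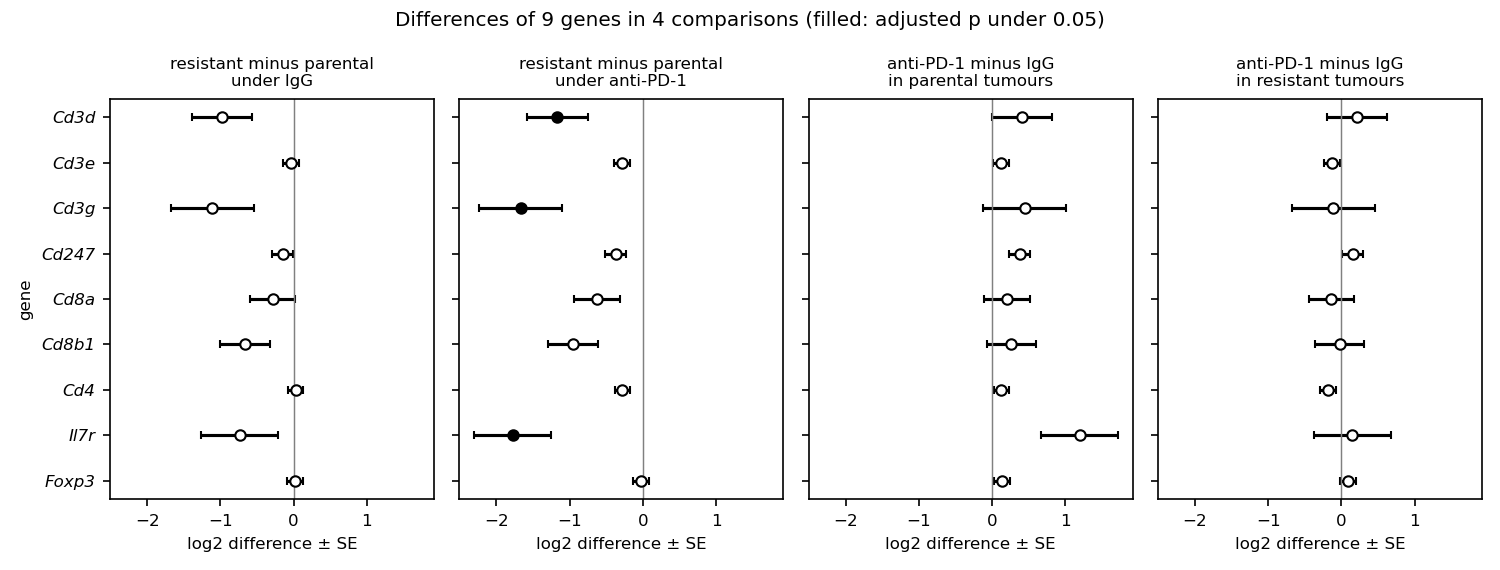
Log2 difference ± SE (x axis) of 9 genes (y axis) in 4 comparisons, from limma's fit over 12 arrays, with filled points where the adjusted p was under 0.05. Filled points are those of Cd3d, Cd3g and Il7r in the second panel, the lines under anti-PD-1, and no gene passed in the other 3.

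Under control IgG, none of the 9 genes passed between the lines in limma, where 16.2% of all genes did (7.31% of all genes as lower), and 1 of the 9 (Cd3d) had an unadjusted p under 0.05, as did 33.1% of all genes. None of the 14 probe sets passed either, against 17% of all. Cd3g differed by -1.11 (SE 0.57, adjusted p = 0.198), Cd3d by -0.97 (SE 0.41, adjusted p = 0.128) and Il7r by -0.73 (SE 0.52, adjusted p = 0.357). Cd8b1 differed by -0.66 (adjusted p = 0.201) and was the only one without overlap (0 of 8 without it), where 15.2% of all genes were lower without overlap. Cd8a differed by -0.29, Cd247 by -0.15, Cd3e by -0.033, Cd4 by 0.027 and Foxp3 by 0.020, and the 9 had a median of -0.29 (-0.22 without Cd8b1) against 0.067 over all genes. A lower mean was found for 7 of the 9 (6 of the 8 without Cd8b1) and for 38.9% of all genes. The count of genes that passed moved in 2 of the 12 fits with 1 array left out. Without Sen+PD1 replicate 2, Cd8b1 passed (adjusted p = 0.0213). Without Sen+IgG replicate 1, Cd3d differed by -1.46 (adjusted p = 0.0247) and Cd3g by -1.75 (adjusted p = 0.0442), and both passed. Both also passed with array weights, as did Cd8b1, and Cd8b1 alone passed in a fit on the 6 arrays.

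Anti-PD-1 gave higher means of all 9 genes in parental tumours, none of which passed in limma, where 3.5% of all genes did. Of all genes, 51.4% had a lower mean. Il7r was higher by 1.19 (SE 0.52, adjusted p = 0.215), Cd3g by 0.45, Cd3d by 0.40, Cd247 by 0.38 (adjusted p = 0.156), Cd8b1 by 0.26 and Cd8a by 0.21. Foxp3, Cd4 and Cd3e were higher by 0.14, 0.13 and 0.12. Il7r and Cd247 had an unadjusted p under 0.05, as did 21.9% of all genes, and Cd247 was the only one without overlap, against 9.12% of all genes higher without overlap. The 9 differences had a median of 0.26, with -0.0067 over all genes. Without Sen+PD1 replicate 1, Il7r was higher by 1.87 and passed (adjusted p = 0.0309). Without both arrays that stood apart, Cd3d, Cd3e, Cd3g, Cd8a and Cd4 turned to -0.065, -0.05, -0.23, -0.04 and -0.01, and Il7r was higher by 0.32. The common direction of the 9 was also lost without Sen+IgG replicate 1 alone, where Cd3g turned to -0.20 and Cd3d to -0.078, and Cd8a turned negative too. It was lost as well without Sen+PD1 replicate 2, which did not stand apart, with Cd8a at -0.15, Cd8b1 at -0.24 and Cd3g negative too.

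In resistant tumours the same treatment gave no common direction, with 4 genes higher, 5 lower and a median of -0.027. None passed in limma, nor did any of the 15493 genes (0%), of which 738 (4.76%) had an unadjusted p under 0.05 and none of them was among the 9. Of all genes, 40.9% had a lower mean. Cd3d differed by 0.21, Cd247 by 0.15, Il7r by 0.15 and Foxp3 by 0.093, while Cd4 differed by -0.18, Cd8a by -0.14, Cd3e by -0.13, Cd3g by -0.11 and Cd8b1 by -0.027. The 3 Cd4 arrays under anti-PD-1 lay below the 3 under IgG, where 5.39% of all genes were lower without overlap. For Cd3d the interval ran from -0.70 to 1.12 and for Il7r from -1.01 to 1.30, so a 2-fold rise in either gene lies inside its interval.

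Whether anti-PD-1 moved the genes differently in the lines was tested as an interaction. All 9 estimates were negative, with a median of -0.29 (0.033 over all genes), and none passed in limma or had an unadjusted p under 0.05. Il7r had the lowest value, -1.05, with an interval from -2.68 to 0.59, followed by Cd3g at -0.56. No gene of the 15493 passed (0%), and 17.5% had an unadjusted p under 0.05, while 45.1% had a negative estimate. The change of Il7r with anti-PD-1 in parental tumours is thus not shown to differ from its change in resistant ones. The interaction and the comparisons within each line share arrays.

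The lineage genes were also set against each other as differences within an array, which are compared across arrays only. Cd8a minus Cd4 was -0.16 ± 0.44 in Sen+IgG, -0.083 ± 0.697 in Sen+PD1, -0.48 ± 0.05 in Res+IgG and -0.43 ± 0.14 in Res+PD1 (SD, n = 3). Parental tumours spread from -0.66 to 0.71 and covered the whole resistant range, and the lines differed by -0.33 (exact stratified permutation test, two-sided, p = 0.19, adjusted 0.38 over 6 tests). Foxp3, near the floor, covered only 3.43 to 3.88, a narrower range than that of Cd8a (4.53 to 6.01) but close to that of Cd3e (5.30 to 5.85). Across the arrays, Foxp3 minus Cd8a thus mostly carries the level of Cd8a with the sign turned, while Foxp3 minus Cd3e carries small changes of both genes. That reading does not extend to the antibodies, where Foxp3 moved by 0.14 in parental and 0.093 in resistant tumours and Cd8a by 0.21 and -0.14. Neither difference measures a balance of regulatory and cytotoxic cells. Foxp3 minus Cd8a was -1.48 ± 0.57, -1.55 ± 0.60, -1.17 ± 0.39 and -0.94 ± 0.19 in the same order. It differed between the lines by 0.46 (exact p = 0.115, adjusted 0.38) and between the antibodies by 0.08 (exact p = 0.78). Foxp3 minus Cd3e differed by 0.16 between the lines (exact p = 0.17, adjusted 0.38) and by 0.12 between the antibodies (exact p = 0.305, adjusted 0.458). None of the 6 tests passed, where the smallest p the 400 arrangements allow is 0.005.

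**Figure D4:**
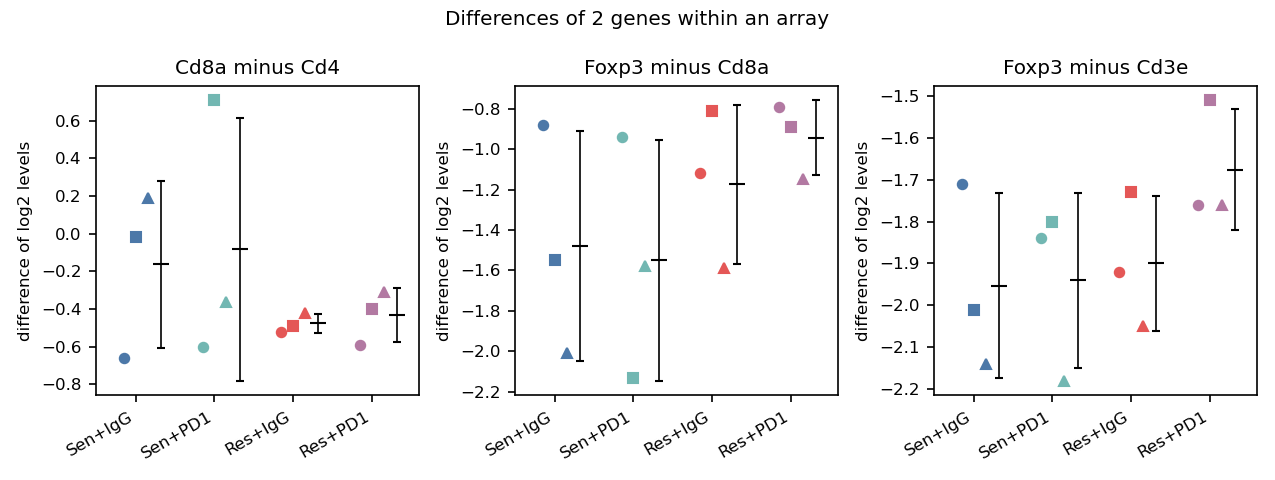
Difference of the log2 levels of 2 genes within an array (y axis, own scale per panel) by group (x axis), 1 point per array, with the mean ± SD beside it (n = 3). In the Cd8a minus Cd4 panel the Sen+PD1 arrays spread from -0.60 to 0.71 while the Res+IgG arrays lie between -0.52 and -0.42.

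The receptor's downstream genes were read from a wider list. Of 37 genes listed for T cell receptor signalling and costimulation, 28 were tested, and 12 of them were lower in resistant tumours under anti-PD-1, with none higher, where 11.9% of all genes were lower and 21.6% higher. Ptpn22, a phosphatase that restrains the receptor's kinases, was at 6.70, 7.08 and 6.85 in Sen+PD1 and at 4.28, 4.70 and 4.83 in Res+PD1, a difference of -2.27 (SE 0.14, adjusted p = 1.5e-05). The costimulator Icos differed by -1.56 (SE 0.40, adjusted p = 0.0128) and Il2rb, a receptor chain for interleukins 2 and 15, by -1.51 (SE 0.38, adjusted p = 0.0119). Ptprc, the CD45 phosphatase of all leukocytes, differed by -1.35 and Thy1, a surface protein of T cells and some stromal cells, by -0.87. The adaptors Lcp2 and Lat, which link the receptor to its effectors, differed by -0.81 and -0.62. Tec, a kinase, differed by -0.76, Ptpn6, the SHP-1 phosphatase, by -0.60, the costimulator Cd28 by -0.54, the exchange factor Vav1 by -0.50 and the phospholipase gene Plcg1 by -0.43. Cd28 was under 3.32 on the Res+PD1 arrays (3.03, 2.99 and 3.21) and passed the filter on dim signals mainly through parental arrays. Its lower level was therefore partly fixed by that filter, and the 12 genes include it. The 28 genes had a median of -0.52. Leaving out 1 array in turn gave 6 to 18 genes that passed (6 without Res+PD1 replicate 2, 7 without Res+PD1 replicate 1, 18 without Sen+PD1 replicate 1), and 9 passed without both arrays that stood apart.

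Under IgG, 4 of these 28 genes were lower in resistant tumours and none higher, where 7.31% of all genes were lower and 8.93% higher. They were Ptpn22 at -1.37 (SE 0.14, adjusted p = 0.000299), Tec at -0.66 (SE 0.09, adjusted p = 0.00143), Ptpn6 at -0.56 and Plcg1 at -0.30, and the list's median was -0.13. Leaving out 1 array gave 2 to 4, with the lowest count without Sen+IgG replicate 2. With anti-PD-1 in parental tumours 1 of the 28 passed, a share near the 3.5% of all genes that passed (1.23% as higher). It was Ptpn22, which rose from 6.05 ± 0.05 to 6.88 ± 0.19 (difference 0.82, limma adjusted p = 0.0240), and the list median was 0.22. Without both arrays that stood apart none passed, and 5 did without Sen+PD1 replicate 1. In resistant tumours none passed and the median was -0.02. Ptpn22 thus separated the lines under both antibodies with groups that did not overlap, while Cd3d and Cd3g did so only under anti-PD-1, a contrast that was not itself tested. On Sen+IgG replicate 1, Cd3g was at 3.48, against 5.27 and 5.54 on replicates 2 and 3. Ptpn22 was at 6.10 there (against 6.05 and 6.01), Tec at 7.85 (7.80 and 7.69) and Plcg1 at 8.41 (8.31 and 8.19). Ptpn6 was at 7.40 (7.67 and 7.82). Which cells these transcripts came from was not tested.

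The variable segments of the receptor were followed through 17 probe sets, added after the data were seen and chosen by their names alone. Of these, 7 were bright enough to test. The brighter probe set named for the beta chain segment Trbv1 was at 6.06, 5.86 and 5.83 in Sen+IgG and 4.98, 6.79 and 6.43 in Sen+PD1, against 4.28, 3.12 and 4.20 in Res+IgG and 3.90, 3.88 and 4.89 in Res+PD1. The lines did not overlap under either antibody, with differences of -2.05 (SE 0.45, adjusted p = 0.0113) under IgG and -1.84 (SE 0.45, adjusted p = 0.00889) under anti-PD-1. Unlike Cd3d, it was as high in Sen+IgG replicate 1 as in the other arrays of that group. It passed under both antibodies when any 1 array was left out, at -2.26 to -1.68 and -2.39 to -1.48. Its name ends in x_at as well, and the dim second Trbv1 probe set, at 3.02 to 3.33, could not be tested. The other 6 tested segment probe sets, for Trav9d-3, Trav12n-2, Trbv13-2 and Trgv4, did not pass, with differences from 0.017 to 0.32 under IgG and from -0.53 to 0.16 under anti-PD-1. Among them the 3 for the alpha chain segment Trav9d-3 differed by 0.093 to 0.32 under IgG and by -0.53 to -0.0033 under anti-PD-1, and 1 of these was the brightest segment probe set, at 6.34 to 7.84. Thus 1 of 7 passed under each antibody, where 17% and 34.5% of all probe sets did.

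Other T cell lists, chosen by cell type, were read beside the members. Of 10 tested transcription factors of the T lineage, 5 were lower and 1 higher in resistant tumours under anti-PD-1 (11.9% and 21.6% of all genes). Bcl11b, which T cells need to commit to their lineage, differed by -0.88, Ets1 by -0.62, the chromatin organiser Satb1 by -1.77 and Tbx21, the T-bet factor of type 1 responses, by -1.05. Under IgG, Bcl11b was lower by 1.18 on the log2 scale in resistant tumours (adjusted p = 0.000873), where 7.31% of all genes were lower, and Runx3, a factor of CD8 cells that epithelial cells can also express, was higher by 0.88 (adjusted p = 0.0303). Runx3 was also the 1 higher gene under anti-PD-1, at 0.84. On Sen+IgG replicate 1, where Cd3g was low, Bcl11b was at 5.99 (6.38 and 6.09 on replicates 2 and 3) and Ets1 at 9.06 (9.09 and 8.88). Satb1 was at 3.53 there (5.19 and 5.04) and Tbx21 at 3.12 (3.62 and 4.11). Which cells these transcripts came from is not known.

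Of 12 tested genes of regulatory T cells, 6 were lower in resistant tumours under anti-PD-1, beside 11.9% of all genes, while Foxp3, their defining gene, lay close to the floor. They included Ctla4, an inhibitory receptor also found on activated T cells, at -1.75, Ikzf2 at -0.75, and the TNF receptor family members Tnfrsf4 and Tnfrsf9 at -0.45 and -0.43. Under IgG none of the 12 passed in limma, and the list's median was -0.005. Around Il7r, the list of naive T cell and interleukin 7 genes had 3 of 12 lower and 1 higher under anti-PD-1 (11.9% and 21.6% of all genes). Cish and Socs1, feedback inhibitors of cytokine signalling, differed by -1.12 and -1.16, Ccr7, the homing receptor of naive cells and mature dendritic cells, by -0.91, and Jak1, a kinase of many cytokine receptors, by 0.46. Under IgG, 3 of the 12 were higher (Klf2 at 0.70, Jak1 at 0.68 and Jak3 at 0.68) and 2 were lower, among them Cish at -0.90, where 8.93% of all genes were higher and 7.31% lower.

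Lists of other cells were read in the same comparison, Res+PD1 against Sen+PD1, in which 11.9% of all genes were lower. Of 14 genes of cytotoxic T and NK cells, which share them, 8 were lower, among them Gzmb at -2.21, Ifng at -1.66, Gzmk at -0.93 and Ctsw at -0.80. Ifng was close to the floor in resistant tumours, at 2.86, 3.08 and 3.17 in Res+IgG and 3.49, 3.30 and 3.79 in Res+PD1. It passed the filter on dim signals mainly through parental arrays, so its lower level was partly fixed by that filter, and the 8 include it. On Sen+IgG replicate 1, Ctsw was at 6.62 (6.30 and 6.48 on replicates 2 and 3) and Gzmb at 5.91 (7.88 and 8.32). Of the 5 tested genes of the NK cell list, 1 was lower, Cma1 at -1.08, but this is a mast cell protease. The other 4 (Ncr1, Klre1, Klra7 and Eomes) did not pass, with differences from -0.41 to 0.18. Klre1 was under 3.32 on every resistant array and was tested only through parental arrays. Lower levels were also found for 1 of 9 B cell genes (Cd22 at -0.39), 1 of 8 dendritic cell genes (Itgax at -1.44) and 2 of 10 macrophage genes (Mertk at -0.82 and Csf1r at -1.05), and 1 of 9 and 1 of 8 are shares near that of all genes. The mean level over the B cell list was 3.89, 3.94, 4.08 and 3.93 in Sen+IgG, Sen+PD1, Res+IgG and Res+PD1, and that of 5 lymph node genes 3.82, 3.93, 4.12 and 3.93. Both were highest in Res+IgG. The Cd3d mean was lowest there (4.99), while the means of Cd3e and Cd3g were lowest in Res+PD1 (5.41 and 3.54). The skeletal muscle median in this comparison was -2.21, with 1 of 12 genes passing (Myh2 at -2.24), and its part in the T cell differences was not tested.

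Genes whose levels were most like those of CD3 were found by Pearson's r with the mean of Cd3d, Cd3e and Cd3g over the 12 arrays, given as a description. That mean mostly follows Cd3g and Cd3d, which reached 0.995 and 0.986 with it. Cd3e, though part of it, reached 0.794 (rank 447). The 10 highest were Cmpk2 at 0.970, Epsti1 at 0.965, Nkg7 at 0.961, Cxcr6 at 0.960, Dtx3l at 0.957, Psme1 at 0.956, Ifng at 0.955, Itgb7 at 0.951, Klrd1 at 0.949 and Klrb1b at 0.947. Nkg7 encodes a protein of cytotoxic granules, Ifng interferon gamma, Cxcr6 a chemokine receptor, Itgb7 an integrin chain and Klrd1 the CD94 receptor. Nkg7, Ifng and Klrd1 are on the list of cytotoxic T and NK cells. Cmpk2 and Epsti1, the highest, and Dtx3l, Psme1, Cxcr6, Itgb7 and Klrb1b are on none of the T cell lists read here. The cells these transcripts came from are not known. Among the members outside the mean, Cd8a reached 0.915 (rank 67 of the genes tested), Il7r 0.911, Cd8b1 0.885, Cd247 0.656, Cd4 0.523 and Foxp3 0.039. The points share arrays and groups, so the deviations from group means were correlated as well. This gave 0.892 to 0.970 for the 10 genes, 0.916 for Cd8a, 0.871 for Il7r, 0.750 for Cd8b1, 0.424 for Cd247, 0.303 for Cd4 and -0.067 for Foxp3. Pooled over the 4 groups, arrays that differed in the CD3 mean thus tended to differ in Cd8a and Il7r the same way, and much less so in Cd4. This did not hold in every group. In Res+PD1 the CD3 mean was 4.71, 4.45 and 4.99 and Cd8a was at 4.53, 4.68 and 4.82. In Sen+PD1 the CD3 mean was 5.12, 6.34 and 5.82 and Il7r was at 5.38, 7.29 and 7.55.

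**Figure D5:**
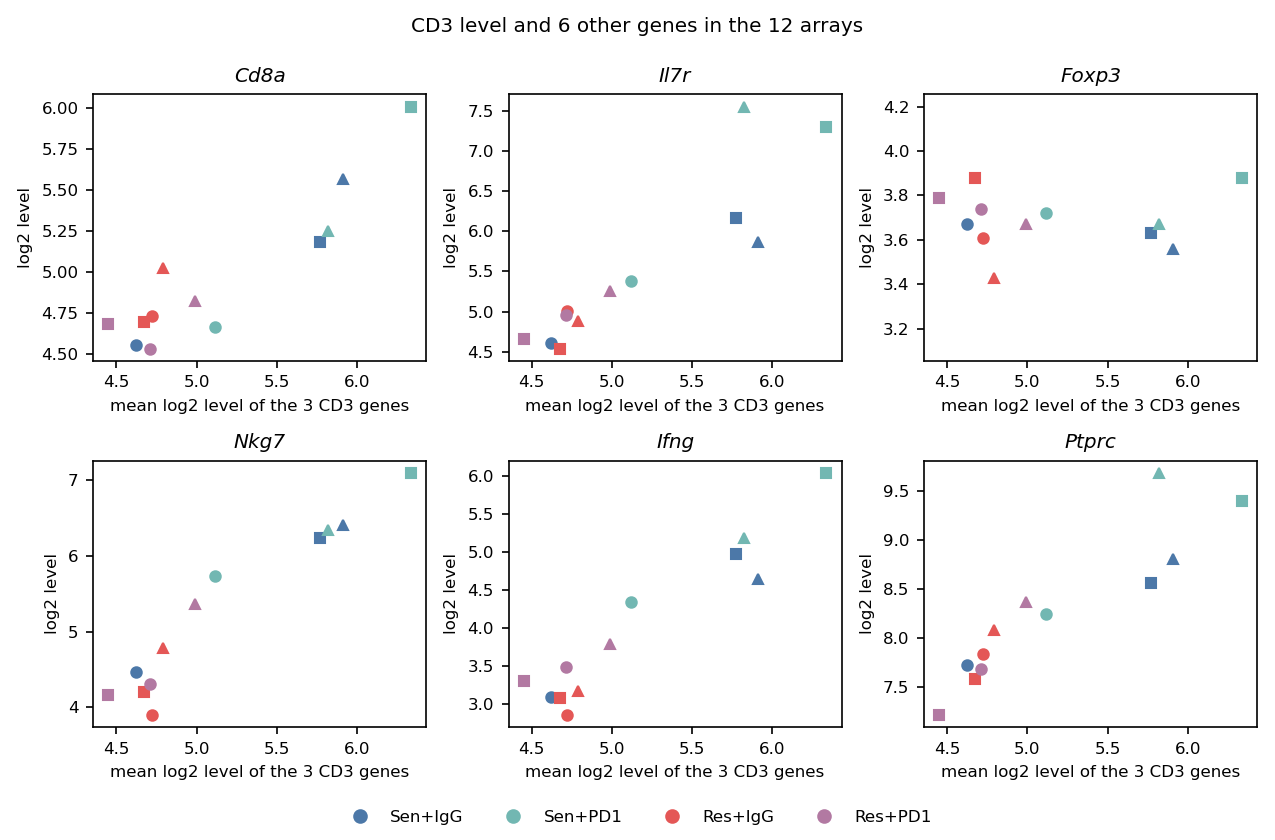
Log2 level of 6 genes (y axes, own scale per panel) against the mean log2 level of Cd3d, Cd3e and Cd3g (x axis) on the 12 arrays, coloured by group and shaped by replicate number (circle 1, square 2, triangle 3). Sen+IgG replicate 1, with a CD3 mean of 4.62, lies among the resistant arrays (4.45 to 4.99), Nkg7 and Ifng rise along the axis and Foxp3 does not.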

How the data were processed

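RNA of whole tumours was labelled with biotin and hybridised to 12 Affymetrix GeneChip arrays for the mouse genome, per the labels' protocols. Log2 levels were deposited by the authors in 1 table and run from 1.62 to 13.88. The normalisation method is not given in the sources used, and near-equal array medians (4.75 to 4.89) were read from the values. No 2 arrays were identical (0 pairs), and array correlations lay between 0.959 and 0.997. Groups were taken from the sample titles, and 0 columns were left out. Of 45101 probe sets, 34945 carried 1 gene in the platform annotation, and 34741 of these symbols were found by gene number in the RefSeq gene table. The brightest probe set stood for its gene, and 15493 genes with 3 or more arrays above 3.32 were tested. The fit, in limma 3.58.1 and R 4.3.3, had a mean for every group, 8 residual and 2.98 prior degrees of freedom. P-values are two-sided and adjusted by Benjamini-Hochberg over all genes of a comparison. A fit over 28634 probe sets gave the values of further probe sets. The code was tested on simulated data. Array numbers 1 to 3 are shared by the groups. Deviations from group means of same-numbered arrays correlated at 0.113, 0.123 and 0.174 between Res+IgG and Res+PD1, all over 0.1. Between Sen+IgG and Sen+PD1 they correlated at 0.636, 0.057 and 0.440, not all over 0.1. Between Sen+IgG and Res+PD1, which share neither line nor antibody, they correlated at 0.411, 0.181 and 0.438, again all over 0.1. This cut therefore cannot show which arrays are pairs, and the labels name none. The reported fit has no block, and the block is an alternative. The members and lists were chosen with earlier results of these data known. The rule for naming genes took all members, the 10 genes most like CD3, signalling genes that passed in any comparison, and at most 4 genes of each other list with the smallest p. Runx3 under anti-PD-1, Krt19, the NK list's genes that did not pass and the lung markers, a list added later, stand outside it and were chosen after their values were seen. Alternatives changed the filter, normalisation, probe set, fit and arrays. Python 3.11.15 and matplotlib 3.10.9 were used for figures. The number of arrays limits the precision.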

Additional observations from a re-analysis of the deposited data

How the results depend on the processing

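Between Res+PD1 and Sen+PD1 the count of members that passed (3) was 0 in the fit on 6 arrays, 1 with a trended and robust prior, 6 with the replicate block and 0 to 7 with 1 array left out. Cd3d lost its call with quantile normalisation (adjusted p = 0.0612) and with no dim filter (0.0523), within a range of 0.0147 to 0.169 over its alternatives. Their probe sets (5) ran from 1 to 9 with 1 array left out. Under IgG the count (0) was 3 with array weights, 1 in the fit on 6 arrays, 2 without both arrays that stood apart (4 probe sets) and 0 to 2 with 1 array left out (0 to 4 probe sets). In parental tumours it ran from 0 to 1 (0 to 2 probe sets). In resistant tumours and in the interaction no member passed in any fit run. The replicate block changed no other count of members. Same-numbered arrays are known to share only that number.

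Signs turned where differences were small. Quantile normalisation gave 0.036 for Cd3e and -0.00986 for Foxp3 under IgG, and for Foxp3 0.0022 under anti-PD-1 and 0.012 in the interaction. Array weights gave -0.040 for Cd4 under IgG, and 0.0022 for Cd3g and 0.090 for Cd8b1 in resistant tumours. With the most variable probe set, Cd4 was at -0.043 in parental and 0.11 in resistant tumours, 0.28 between Res+PD1 and Sen+PD1 and 0.15 in the interaction, and Il7r at -0.11 in resistant tumours. Without both arrays that stood apart, parental differences were -0.065 for Cd3d, -0.05 for Cd3e, -0.23 for Cd3g, -0.04 for Cd8a and -0.01 for Cd4, and the interaction was 0.28 for Cd3d and 0.11 for Cd3g. The cause was not tested. With 1 array left out, differences under IgG ran from -0.13 to 0.03 for Cd3e, -0.048 to 0.085 for Cd4 and -0.10 to 0.13 for Foxp3. Those in parental tumours ran from -0.078 to 0.74 for Cd3d, -0.20 to 1.00 for Cd3g, -0.15 to 0.53 for Cd8a and -0.24 to 0.61 for Cd8b1. In resistant tumours they ran from -0.32 to 0.062 for Cd3g, -0.14 to 0.072 for Cd8b1, -0.0033 to 0.30 for Il7r and -0.012 to 0.21 for Foxp3. Foxp3 ran from -0.067 to 0.038 under anti-PD-1. Interactions ran from -0.53 to 0.29 for Cd3d, -1.12 to 0.082 for Cd3g, -0.67 to 0.0083 for Cd8a, -0.64 to 0.22 for Cd8b1 and -0.15 to 0.077 for Foxp3. Between antibodies, Cd8a minus Cd4 ran from -0.14 to 0.19 and Foxp3 minus Cd8a from -0.073 to 0.23.

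Counts over all genes moved by more than 1.5 times with array weights (5152 under IgG, 918 in parental tumours and 121 in the interaction, against 2517, 542 and 0), to 0 in the fit on 6 parental arrays, to 100 there without both arrays, and to 3 in the interaction with the replicate block. With 1 array left out they ran from 1273 to 3483 under IgG, 9 to 711 in parental tumours, 0 to 1 in resistant tumours and 0 to 78 in the interaction. Levels near 3.32, as for Cd8b1, Foxp3 and most Cd247 probe sets, limit what these arrays can show.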
